A study of Homo sapiens with 6 samples.

Results

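The genes described here make cholesterol and fatty acids, control that synthesis, or carry sterols into and out of the cell. They were chosen by name from a list of 35 genes, sorted by role: 18 enzymes of sterol synthesis, 5 genes of the SREBP control circuit, 2 genes of sterol uptake and transport, 3 genes of the LXR efflux arm, and 7 enzymes of fatty acid synthesis. Of these, 32 were measured among 19676 genes. FDFT1, CYP51A1 and FADS1 were not analysed here, since no probe set named any of them alone. Levels are log2 values of the deposited probe set intensities, and where several probe sets named only that gene, the one brightest on average was read.

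The cells were A375, an established human melanoma line with mutated BRAF, grown in medium with fetal bovine serum, and 6 Affymetrix arrays were made, 1 for each condition. Those at 16 h were 10 µM vemurafenib (VEM), an inhibitor of mutant BRAF, and the solvent DMSO. At 6 h they were 10 µM VEM with 100 nM AT9283, an inhibitor of Aurora kinases and JAK2 among others, then each drug alone at the same dose, and DMSO. The DMSO arrays carry the treatment label "None" and a source label that names DMSO. With no repeated condition, every difference below is between single arrays of 1 cell line and has no replicate check.

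Cells build cholesterol from acetyl-CoA through mevalonate, squalene and lanosterol, and build fatty acids from the same precursor. When sterols in the endoplasmic reticulum run low, SCAP carries the SREBP transcription factors to the Golgi, where they are cleaved and sent to the nucleus; when sterols are plentiful, INSIG proteins hold the complex back. SREBF2 encodes the factor best known for sterol genes and SREBF1 the factors best known for fatty acid genes. Oxysterols act in the other direction through LXR, which pairs with RXR and turns on the cholesterol exporters ABCA1 and ABCG1, the ubiquitin ligase MYLIP, which degrades lipoprotein receptors, and SREBF1 itself.

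Promoter windows were searched for letter motifs of these circuits. RefSeq windows (GRCh38.p14) of 300 bases, from 250 before the start site to 50 after it, were matched by symbol for 30 of the 35 genes, in 40 windows. Motifs were searched on both strands, with N for any base, and a match may overlap another. The sterol regulatory element was searched as TCACNCCAC, the CCAAT box of the factor NF-Y as CCAAT, the E-box as CACGTG, and the LXR element, as a direct repeat of NGGTNA with a spacer of 4 bases. The CCAAT box was in 25 of the 40 windows (62.5%), against 34.6% of all 35116 windows, and 13 of the 15 sterol synthesis genes with a window had it. The sterol element was in 1 of the 40 windows, that of SREBF2, against 1.13% of all windows. The E-box was in 6 of the 40 windows, against 7.26% of all windows, and the LXR repeat in 2 of the 40, those of ABCA1 and HMGCS1, against 0.624%. These matches describe letters and not binding.

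The windows below, printed on the gene's own strand, are those of ABCA1, the gene over the size rule used below, of SREBF2, with its sterol element, of EBP, a sterol enzyme lower under VEM at 16 h, and of INSIG1, lower at both times. Capitals mark the LXR repeat in ABCA1 (chr9:104928106-104928405, minus strand), the sterol element and a CCAAT box in SREBF2 (chr22:41832855-41833154, plus strand), CCAAT boxes in EBP (chrX:48521558-48521857, plus strand), and a CCAAT box and the E-box in INSIG1 (chr7:155297628-155297927, plus strand). A CCAAT box on the opposite strand reads ATTGG, and the LXR repeat of ABCA1 lies on the opposite strand. An E-box of ABCA1, from -147 to -142, is left in lower case.
ABCA1: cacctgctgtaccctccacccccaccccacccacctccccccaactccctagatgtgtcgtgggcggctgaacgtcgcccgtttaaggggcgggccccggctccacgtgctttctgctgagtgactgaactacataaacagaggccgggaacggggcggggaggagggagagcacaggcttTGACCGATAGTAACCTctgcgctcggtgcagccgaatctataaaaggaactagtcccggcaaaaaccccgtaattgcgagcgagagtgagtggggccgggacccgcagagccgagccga
SREBF2: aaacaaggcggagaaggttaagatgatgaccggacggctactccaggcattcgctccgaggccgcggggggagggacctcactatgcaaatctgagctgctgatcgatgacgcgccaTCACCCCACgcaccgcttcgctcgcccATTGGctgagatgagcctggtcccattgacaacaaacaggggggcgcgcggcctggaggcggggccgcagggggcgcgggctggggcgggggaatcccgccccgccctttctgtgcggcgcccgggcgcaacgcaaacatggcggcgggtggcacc
EBP: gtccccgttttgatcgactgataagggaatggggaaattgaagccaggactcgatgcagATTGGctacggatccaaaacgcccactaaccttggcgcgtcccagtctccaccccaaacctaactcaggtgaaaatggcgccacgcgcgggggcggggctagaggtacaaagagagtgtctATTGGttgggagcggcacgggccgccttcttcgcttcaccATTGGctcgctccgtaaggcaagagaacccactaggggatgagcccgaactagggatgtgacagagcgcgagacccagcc
INSIG1: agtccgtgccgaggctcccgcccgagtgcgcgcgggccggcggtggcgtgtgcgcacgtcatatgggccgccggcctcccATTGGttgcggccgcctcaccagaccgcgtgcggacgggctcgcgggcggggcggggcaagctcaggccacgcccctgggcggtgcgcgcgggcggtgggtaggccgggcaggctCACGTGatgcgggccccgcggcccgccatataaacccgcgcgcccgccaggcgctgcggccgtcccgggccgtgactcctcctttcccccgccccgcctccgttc
Counting the first transcribed base as 0, the LXR repeat of ABCA1 ran from -69 to -54, the sterol element of SREBF2 from -133 to -125, and the E-box of INSIG1 from -55 to -50.

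The arrays were alike in overall signal. Their median intensity lay between 19.79 and 21.29, and 26 or 27 of the 32 genes reached a log2 value of 6, called the floor here, on each array. Of 7 measured melanocyte markers 3 reached it, SOX10 and MITF on all 6 arrays and S100B on 1. PMEL, MLANA, TYR and S100A1 were below it on every array, and so were all 10 measured markers of epithelium, blood, endothelium and hepatocytes. "Rose" and "fell" below describe genes with a log2 difference of at least 1, which is 2-fold, and a higher array at the floor. The rule goes by size and gives no p.

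After 16 h of VEM the 3 LXR efflux genes had higher values than in DMSO, by 0.76 to 1.52 on the log2 scale, with ABCG1 below the floor. Of the 16 sterol synthesis enzymes 10 had lower values, each by less than 1.5-fold. Over all 19676 genes 9700 had higher and 8741 lower values. ABCA1, the exporter that loads cholesterol onto apolipoproteins, was the single gene among the 27 at the floor that rose, and none fell. Among all 9469 genes at the floor, 11.0% passed the rule (5.19% rising), so the count for these genes is below the background. At a smaller size of 0.5 on the log2 scale, 4 of the 27 were higher and 3 lower, against 16.0% and 18.0% of all genes at the floor (34.1% in either direction). The SD of the log2 difference was 0.50 over the 27 genes and 0.71 over all genes at the floor. In bulk RNA, fewer cells of a type and less RNA per cell cannot be told apart.

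**Figure D1:**
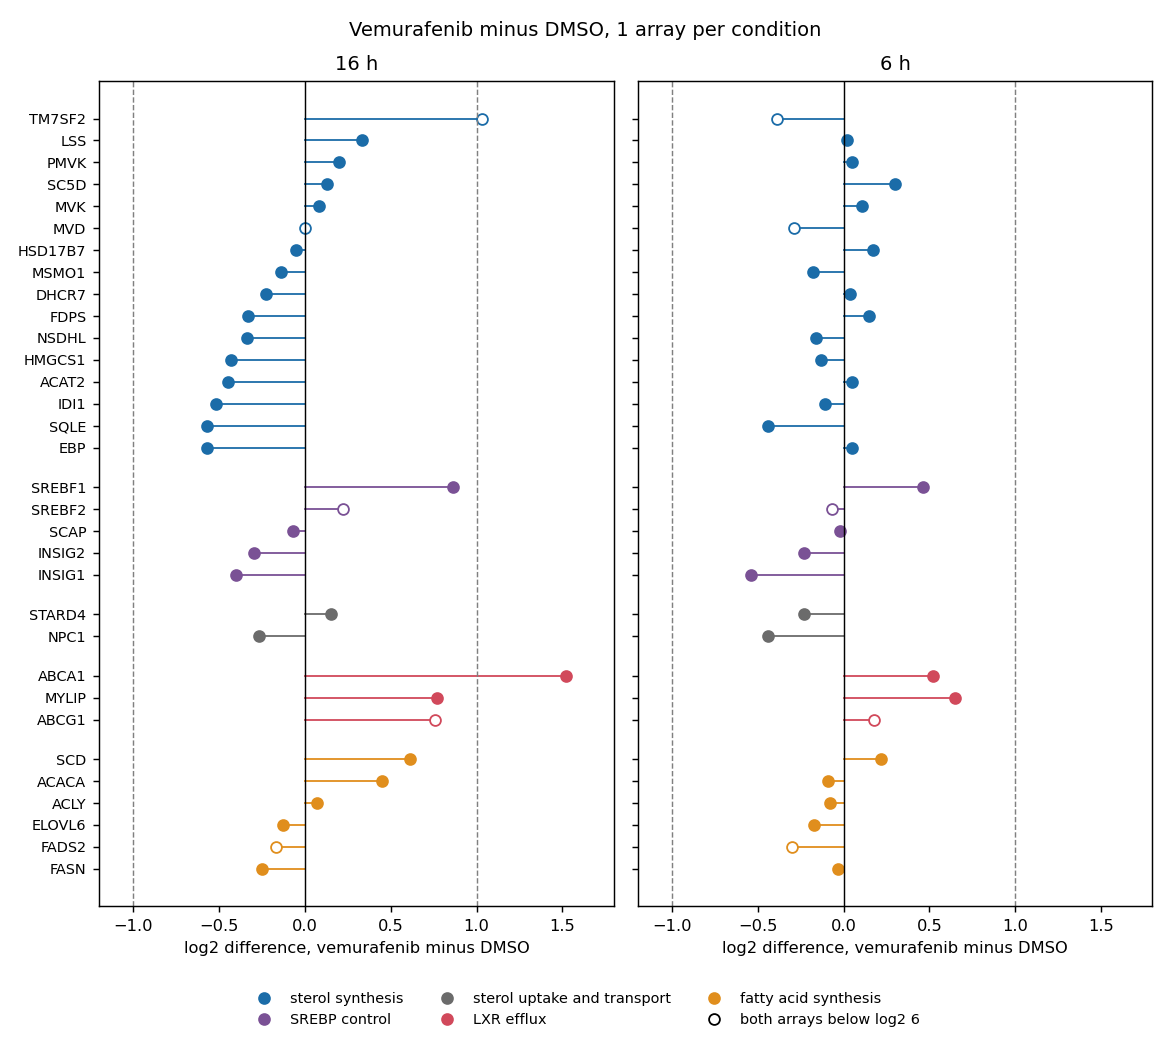
Log2 difference of each of the 32 measured genes, VEM minus DMSO, at 16 h (left) and 6 h (right), 1 array per condition, coloured by role. Dashed lines mark a difference of 1 in either direction and open circles mark genes with both arrays below log2 6. ABCA1 at 16 h (1.52) is the filled point past a dashed line, and TM7SF2 (1.03) passes it with both arrays below log2 6.

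ABCA1 lay at log2 8.08 under VEM and 6.56 in DMSO at 16 h, and at 7.33 under VEM with AT9283, 7.38 under VEM, 7.04 under AT9283 and 6.87 in DMSO at 6 h. Its difference was 1.52 (2.88-fold) at 16 h and 0.52 (1.43-fold) at 6 h. All 3 arrays with VEM were above all 3 without it. The share of all genes that separate in this way was not computed, so this pattern has no background here or below. ELOVL6 (-0.13 at 16 h) and MSMO1 (-0.14 at 16 h) separated fully as well, with lower values under VEM. A second ABCA1 probe set at the floor gave 1.47 at 16 h and 0.71 at 6 h, while 2 others, below log2 4 on every array, gave -0.02 and 0.02 at 16 h. Averaged over all 4 probe sets the log2 difference was 0.75 and the higher array 5.13, so the call is lost if probe sets are averaged.

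ABCG1, the exporter that passes cholesterol to lipoprotein particles, depended on the probe set. The one used lay at 5.00 under VEM and 4.24 in DMSO at 16 h, a difference of 0.76 below the floor. Another, lower on average, lay at 6.14 under VEM and 2.96 in DMSO at 16 h, a difference of 3.17 that would pass the size rule, and at 3.05 under VEM with AT9283, 3.18 under VEM, 2.72 under AT9283 and 2.40 in DMSO at 6 h. This probe set was chosen after its values were seen, and its DMSO value is near background, so the size of the difference is loose. All 4 ABCG1 probe sets were higher under VEM than in DMSO at 16 h, the other 2 by 0.54 and 0.45.

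MYLIP lay at 7.34 under VEM and 6.58 in DMSO at 16 h, a difference of 0.77. At 6 h it lay at 6.97 under VEM with AT9283, 6.83 under VEM, 6.82 under AT9283 and 6.17 in DMSO, so that all 3 treated arrays stood above the same DMSO array by 0.80, 0.65 and 0.65. The 3 other MYLIP probe sets at the floor at 16 h gave 0.59, 0.39 and 0.66 there and 0.47, 0.33 and 0.56 for VEM at 6 h. For AT9283 alone they gave -0.04, 0.15 and 0.12, with both arrays below the floor, so the AT9283 difference of 0.65 was seen on 1 probe set. Against the average of the DMSO arrays it was 0.45.

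**Figure D2:**
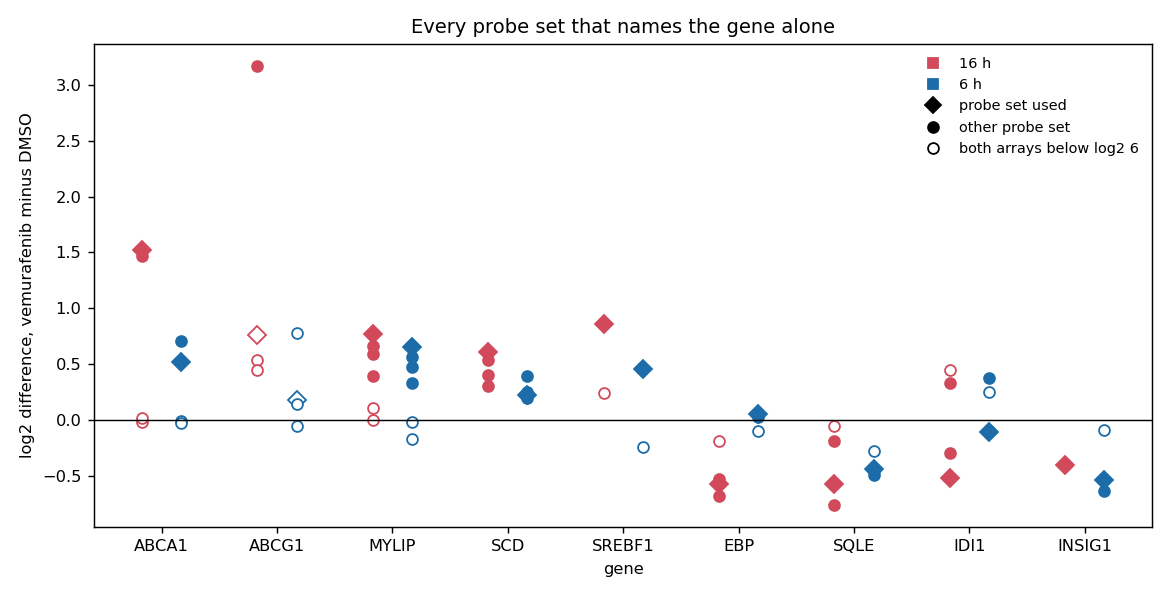
Log2 difference, VEM minus DMSO, of every probe set that names the gene alone, at 16 h (red, left of each pair) and 6 h (blue, right). Diamonds are the probe sets used, circles the others, and open symbols have both arrays below log2 6. The highest point is the ABCG1 probe set at 3.17, and the IDI1 probe sets at the floor have opposite signs at 16 h (-0.52 and 0.33).

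In the SREBP circuit, SREBF1, which is also an LXR target, lay at 7.57 under VEM and 6.71 in DMSO at 16 h. At 6 h it lay at 7.69 under VEM with AT9283, 7.52 under VEM, 7.10 under AT9283 and 7.05 in DMSO. On this probe set every array with VEM was above every array without it. The differences were 0.86 (1.82-fold) at 16 h and 0.46 (1.38-fold) at 6 h, both under the size rule. The other SREBF1 probe set lay below the floor and gave 0.24 at 16 h and -0.24 at 6 h. With the mean of its probe sets the differences were 0.55 and 0.11, so the SREBF1 values here rest on 1 probe set. SREBF2 stayed between 5.67 and 5.99 on all arrays, below the floor, with differences of 0.22 at 16 h and -0.07 at 6 h. The escort SCAP had differences of -0.07 at 16 h and -0.02 at 6 h.

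INSIG1, the sterol-regulated retention factor and itself an SREBP target, was lower under VEM at both times. Its level was 6.64 under VEM and 7.04 in DMSO at 16 h, and 6.63 under VEM with AT9283, 6.48 under VEM, 6.99 under AT9283 and 7.01 in DMSO at 6 h. The 3 arrays with VEM were the 3 lowest. Differences were -0.40 at 16 h and -0.54 at 6 h, and the second probe set at the floor gave -0.40 and -0.64. INSIG2, the isoform that is not driven by SREBP, differed by -0.30 at 16 h and -0.23 at 6 h.

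**Figure D3:**
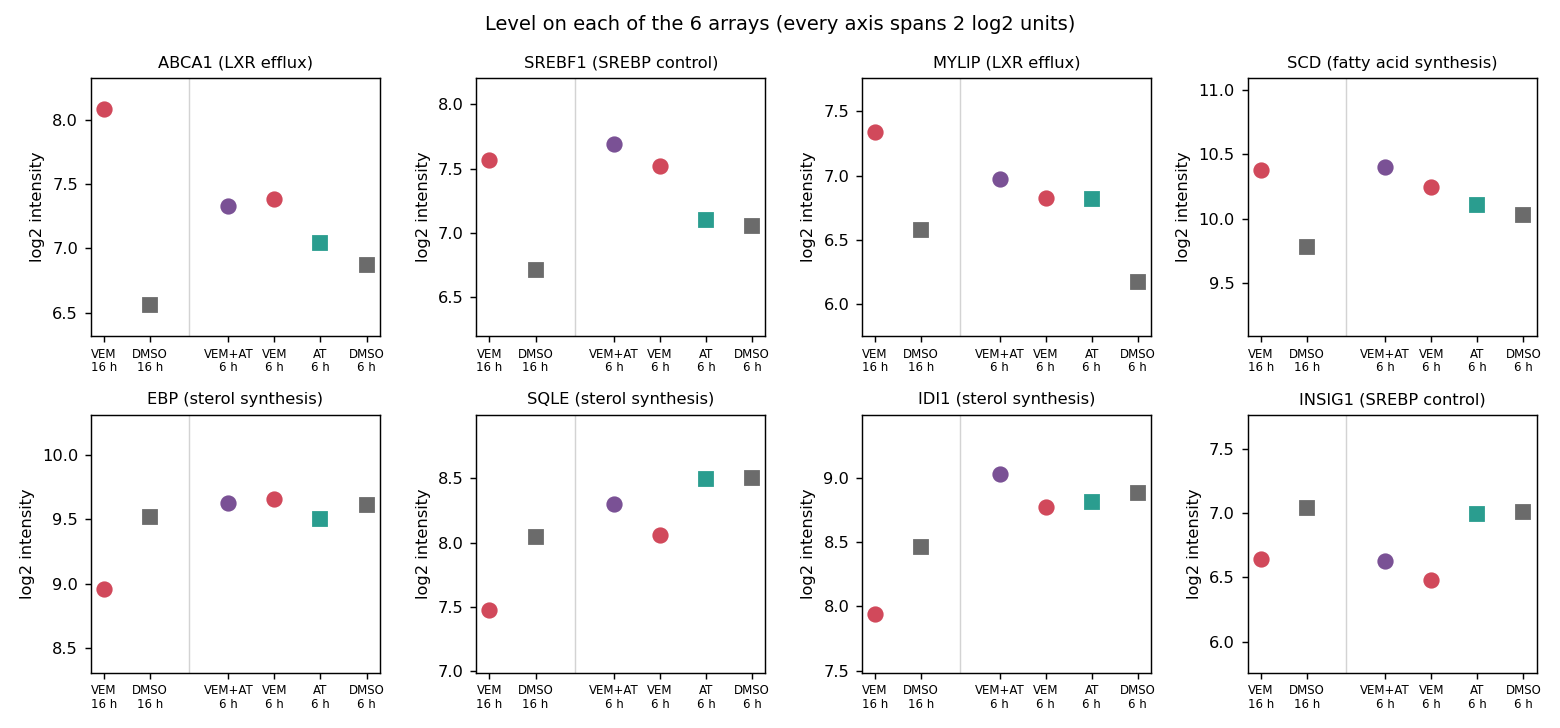
Log2 intensity of 8 genes on each of the 6 arrays, with 16 h arrays left of the grey line and 6 h arrays right of it, and every axis spanning 2 log2 units. Circles are arrays with VEM and squares arrays without it. On the probe sets used, the VEM array lies above the DMSO array at both times for ABCA1, SREBF1, MYLIP and SCD. It lies below for SQLE, IDI1 and INSIG1.

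Sterol synthesis enzymes were the largest group. Of 16 measured, 10 were lower and 5 higher (31.25%) under VEM than in DMSO at 16 h, against 49.3% higher over all genes. The median of the 16 was -0.19 on the log2 scale against 0.00 over all genes, and none passed the size rule. Centring each array on its own median shifts all differences at 16 h by -0.13, and then the list median was -0.32 against -0.13 over all genes. With the mean of all probe sets of a gene it was -0.10. At 6 h 9 were higher (56.25%, against 54.3% of all genes) and 7 lower. The median then was 0.03 against 0.02 over all genes, and it turned to -0.01 with centring. The difference between the times was negative for 11 of the 16 enzymes, and for 9812 of all 19676 genes.

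The lowest differences at 16 h were those of EBP, which shifts a double bond in the sterol ring, and SQLE, which oxidises squalene, both at -0.57. EBP lay at 8.96 under VEM and 9.52 in DMSO at 16 h, and between 9.50 and 9.66 on all 4 arrays at 6 h. The VEM array at 16 h was thus apart from the other 5, and the 2 other EBP probe sets at the floor gave -0.68 and -0.53. SQLE lay at 7.48 under VEM and 8.04 in DMSO at 16 h, and at 8.30 under VEM with AT9283, 8.06 under VEM, 8.49 under AT9283 and 8.50 in DMSO at 6 h. At 6 h its VEM difference was -0.44, and its 2 other probe sets at the floor gave -0.76 and -0.19 at 16 h and -0.49 and -0.46 at 6 h.

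The enzymes of the early mevalonate pathway were uneven. IDI1, the isopentenyl diphosphate isomerase, lay at 7.94 under VEM and 8.46 in DMSO at 16 h (-0.52), and at 9.03 under VEM with AT9283, 8.77 under VEM, 8.81 under AT9283 and 8.88 in DMSO at 6 h (-0.11 for VEM). Its other probe sets at the floor disagreed at 16 h, with -0.30 and 0.33, and the mean over its probe sets was -0.01. They disagreed for VEM at 6 h as well, with -0.10 and 0.38, and the mean there was 0.10. ACAT2, the thiolase that starts the pathway, differed by -0.45 at 16 h and 0.05 at 6 h, and HMGCS1, the HMG-CoA synthase, by -0.43 and -0.13. FDPS, the farnesyl diphosphate synthase, differed by -0.33 and 0.15. MVK and PMVK, the kinases of mevalonate and phosphomevalonate, differed by 0.08 and 0.20 at 16 h. MVD, the decarboxylase, was below the floor and was listed with the same intensity on both 16 h arrays.

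Later steps of sterol synthesis ran in both directions. LSS, the lanosterol synthase, lay at 7.54 under VEM and 7.20 in DMSO at 16 h (0.33), and at 7.79 under VEM with AT9283, 7.59 under VEM, 7.62 under AT9283 and 7.57 in DMSO at 6 h (0.02 for VEM). NSDHL and MSMO1, which remove methyl groups, differed by -0.34 and -0.14 at 16 h, and the reductase DHCR7, which makes cholesterol, by -0.23. The desaturase SC5D differed by 0.13 at 16 h and 0.30 at 6 h, and HSD17B7 by -0.05 and 0.17. TM7SF2, a sterol reductase, had the highest value, 1.03, at 5.92 under VEM and 4.89 in DMSO at 16 h. Both of its 16 h arrays were below the floor, so it did not pass the size rule.

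Of the transport genes, NPC1, which releases cholesterol from lysosomes, lay at 7.69 under VEM and 7.96 in DMSO at 16 h, and at 7.74 under VEM with AT9283, 7.66 under VEM, 7.99 under AT9283 and 8.10 in DMSO at 6 h. The 3 arrays with VEM were the 3 lowest, with differences of -0.27 at 16 h and -0.44 at 6 h. STARD4, a cytosolic sterol carrier, differed by 0.15 at 16 h and -0.23 at 6 h.

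Fatty acid synthesis enzymes had no common direction at 16 h, with 3 of 6 higher, 3 lower, and a median of -0.03. The sign of that median changed with quantile normalization, to 0.03. SCD, the desaturase that makes monounsaturated fatty acids, was the highest. It lay at 10.38 under VEM and 9.78 in DMSO at 16 h (0.61, 1.52-fold), and at 10.40 under VEM with AT9283, 10.25 under VEM, 10.11 under AT9283 and 10.03 in DMSO at 6 h (0.22 for VEM). The 3 other SCD probe sets were higher under VEM as well, by 0.30 to 0.54 at 16 h and 0.20 to 0.39 at 6 h, and all 3 VEM arrays stood above the other 3 on the probe set used. On the 3 other probe sets the VEM arrays did not all stand above the rest.

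The other fatty acid enzymes differed by less than 0.5, and ACACA was split between probe sets. ACACA, which commits acetyl-CoA to fatty acids, differed by 0.45 at 16 h on the probe set used and by -0.29 on a second one at the floor. ACLY, which makes cytosolic acetyl-CoA, differed by 0.07 at 16 h and -0.08 at 6 h, and FASN, the fatty acid synthase, by -0.25 and -0.03. ELOVL6, an elongase, differed by -0.13 and -0.17. FADS2, a desaturase below the floor, differed by -0.17 and -0.30. At 6 h 5 of the 6 enzymes were lower and 1 higher, where 54.3% of all genes were higher. FASN, ACLY and ACACA (-0.09) lay within 0.17, an SD per array estimated from the DMSO difference between the times. The second ACACA probe set gave 0.12 at 6 h, and FADS2 was below the floor, so no common direction is read from this count. The median of the 6 at 6 h was -0.09 against 0.02 over all genes. Against the average of the DMSO arrays it was 0.02, with 0.03 over all genes.

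**Figure D4:**
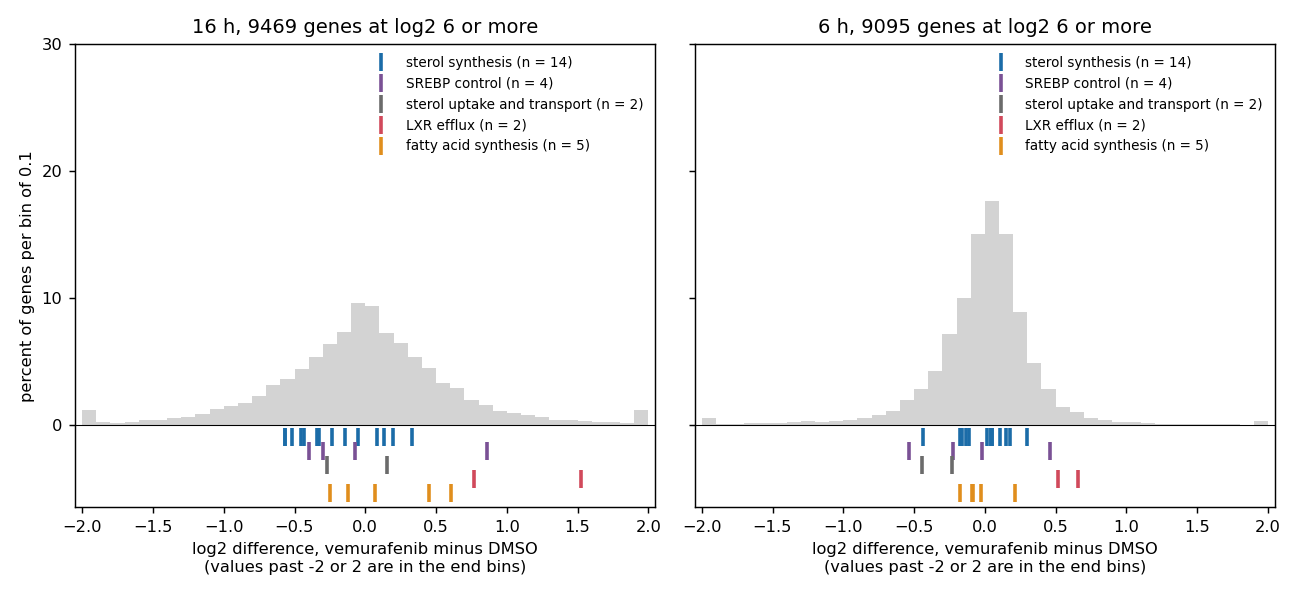
Distribution of the log2 difference, VEM minus DMSO, over all genes at the floor, at 16 h (left, 9469 genes) and 6 h (right, 9095 genes), in percent of genes per bin of 0.1. Coloured ticks below are the 27 genes described here, a row per role. Most ticks lie under the bulk of the distribution, sterol synthesis at 16 h to the left of 0 for 10 of its 14 ticks.

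After 6 h of VEM 0 of 27 genes at the floor passed the size rule, against 3.18% of 9095 genes. At 0.5, MYLIP (0.65) and ABCA1 (0.52) were higher and INSIG1 (-0.54) was lower, 3 of 27 against a background of 11.4% (4.56% higher and 6.82% lower). The differences at 16 h and at 6 h share no array. Over the 27 genes they had a Pearson r of 0.705, and over 8913 genes at the floor one of 0.741. Genes measured on 1 array share its labelling and scan, so these values are descriptions. The sign was the same at both times for 19 of the 27 (70.4%) and for 73.7% of the 8913.

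The vemurafenib effect was also fitted over all 4 arrays of VEM and DMSO, with time as a block, in limma with Benjamini-Hochberg adjustment over 9651 genes. Its 1 residual degree of freedom is the change of the difference with time, not replicate error. No gene of the 27 tested had an adjusted p under 0.05, where 1.17% of all genes did, and 6 had an unadjusted p under 0.05, against 22.2% of all genes. The count of 6 is at the share over all genes, so the values below are descriptions. Of these 6, higher were MYLIP at 0.71 (SE 0.14, adjusted p 0.118), SREBF1 at 0.66 (SE 0.16, adjusted p 0.147) and ABCA1 at 1.02 (SE 0.27, adjusted p 0.160). Lower were SQLE at -0.50 (SE 0.13, adjusted p 0.165), INSIG1 at -0.47 (SE 0.14, adjusted p 0.181) and NPC1 at -0.36 (SE 0.13, adjusted p 0.225). A limma fit of main effects over all 6 arrays also gave 0 of 27 past the adjusted threshold (4.77% of all genes passed) and 9 at an unadjusted p under 0.05, against 31.3%. That count too is near the share over all genes. The 2 residual degrees of freedom of this fit are the change of the VEM difference with time and with AT9283, again not replicate error. In the fit over 6 arrays SREBF1 had the lowest adjusted p of the 27, 0.0505, with an estimate of 0.64 (SE 0.10).

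AT9283 alone put 0 of 27 genes over the size rule at 6 h, against 0.0224% of 8938 genes, and at 0.5 only MYLIP (0.65), against 0.302% (0.224% higher). Sterol synthesis had a median of -0.06 with 6 enzymes higher and 10 lower, and fatty acid synthesis a median of 0.06. Over all genes 47.3% were higher, with a median of -0.01. HMGCS1 was 0.20 higher on the probe set used and 0.33 higher on the second, and TM7SF2 (-0.46) and FADS2 (-0.40), both below the floor, were the lowest. ABCA1, SREBF1, INSIG1 and SQLE differed by 0.17, 0.05, -0.03 and -0.01. The SD of the difference was 0.16 over the 27 genes and 0.13 over all genes at the floor.

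VEM with AT9283, set against DMSO at 6 h, left 0 of 27 genes over the size rule (2.57% of 9076 genes passed), and at 0.5 MYLIP (0.80) and SREBF1 (0.63) were higher, against 9.09% (3.92% higher). INSIG1 (-0.39), FADS2 (-0.37) and NPC1 (-0.36) were the lowest. These differences and those of VEM alone use the same DMSO array. VEM with AT9283 against VEM alone put 0 of 27 over the size rule, against 0.322% of 8999 genes, and 0 past 0.5, against 2.10%. That difference ran from -0.26 for ABCG1 to 0.35 for TM7SF2, both below the floor, with 21 of 32 genes above 0 (65.6%, against 48.6% of all genes) and a median of 0.09. IDI1 (0.26), ACACA (0.27), STARD4 (0.29), HMGCS1 (0.25) and SQLE (0.25) were among the higher on the probe sets used. Other probe sets at the floor went the other way for IDI1 (-0.29) and ACACA (-0.22), and the mean over the IDI1 probe sets was -0.08. ABCA1 and SREBF1 differed by -0.05 and 0.17.

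The effect of VEM in the presence of AT9283 (VEM with AT9283 against AT9283) shares no array with that of VEM alone. It put 0 of 27 genes over the size rule, against 2.42% of 9073 genes, and at 0.5 only SREBF1 (0.59), against 8.19% (2.71% higher). Over the 27 genes the 2 effects had a Pearson r of 0.770, and 22 (81.5%) had the same sign, against 0.904 and 80.8% over 8949 genes at the floor. SREBF1 differed by 0.59 with AT9283 and 0.46 without it, INSIG1 by -0.36 and -0.54, SCD by 0.29 and 0.22, and ABCA1 by 0.29 and 0.52. MYLIP differed by 0.15 with AT9283 and 0.65 without it, the largest gap among genes at the floor, on the probe set whose AT9283 value the others did not share. On those 3 probe sets the values with AT9283 were 0.47, 0.34 and 0.51.

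**Figure D5:**
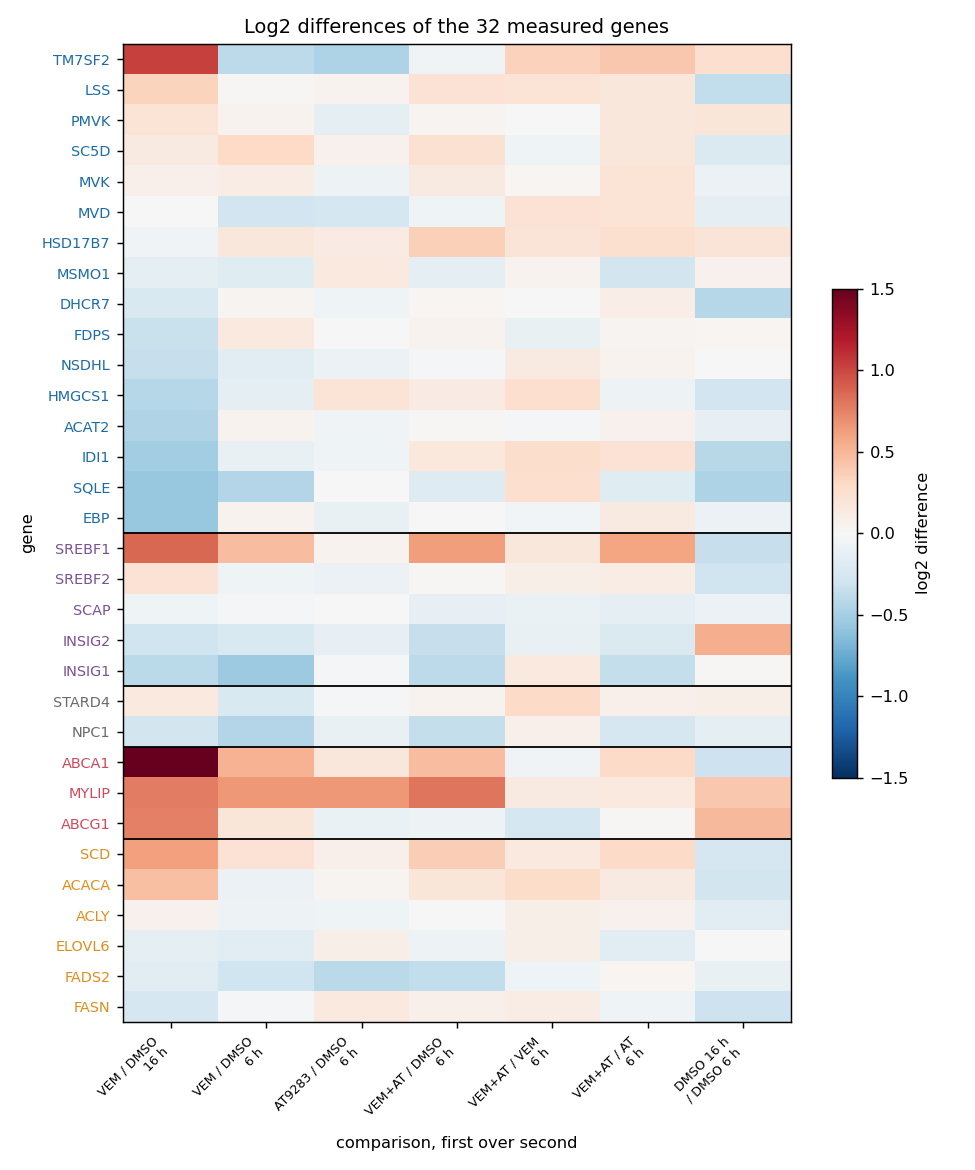
Log2 differences of the 32 measured genes (rows, coloured by role and in the order of the 16 h VEM difference within a role) in 7 comparisons of single arrays (columns, first over second condition). Red is higher and blue lower in the first condition, on a scale that ends at 1.5 in either direction. The VEM column at 16 h holds the strongest colours, from ABCA1 (1.52) to EBP and SQLE (-0.57).

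In DMSO alone, set at 16 h against 6 h, 0 of 27 genes passed the size rule, against 0.276% of 9055 genes, and at 0.5 only INSIG2 (0.54), against 4.35% (2.30% higher). All 6 fatty acid synthesis enzymes were lower at 16 h, between -0.31 and -0.01, with a median of -0.21, and 10 of 16 sterol enzymes were lower, SQLE (-0.46), DHCR7 (-0.43), IDI1 (-0.42) and LSS (-0.37) the most. Of all genes 48.3% were higher at 16 h, with a median of -0.01, so the sterol count is near the background. Of the efflux genes, ABCG1, below the floor, differed by 0.49, MYLIP by 0.41 and ABCA1 by -0.31, while the second ABCA1 probe set at the floor differed by 0.17. SQLE and IDI1 thus differed in DMSO between the times by nearly as much as under VEM at 16 h. Exactly equal intensities were listed for 4493 of 54613 probe sets on the 16 h pair, for 592 to 731 on the 6 pairs of 6 h arrays, and for 84 to 103 on the 8 pairs across the times. No source used here says whether both times were normalized in 1 run, so effects of time and of processing cannot be told apart. Among probe sets at the floor, 1.11% had equal values on the 16 h pair.

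Other genes of the same circuits came from lists of 66 further genes, of which 55 were measured. After 16 h of VEM 2 of the 47 at the floor rose and 1 fell, against 5.19% and 5.79% of all genes. RXRA, the partner of LXR, lay at 7.55 under VEM and 6.32 in DMSO at 16 h (1.23), and NR1H3, which encodes LXR alpha, at 8.69 and 7.80 (0.89). LPIN1, a phosphatidate phosphatase of lipid synthesis, lay at 9.05 under VEM and 7.80 in DMSO (1.25). Of the 5 LXR-related genes measured, 4 were higher at 16 h (49.3% of all genes were), with a median of 0.52 against 0.00 over all genes. LRP8, a lipoprotein receptor, fell, at 7.11 under VEM and 8.60 in DMSO (-1.49).

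At 6 h of VEM 1 of 46 further genes at the floor rose and none fell, against 1.03% and 2.14%. It was VLDLR, the very low density lipoprotein receptor, at 7.10 under VEM and 4.33 in DMSO (2.78), with 5.46 under VEM with AT9283 and 4.34 under AT9283. VLDLR fell by 1.65 under VEM with AT9283 against VEM alone. Its values on all 6 h arrays but that of VEM alone were below the floor, so the sizes of these differences are loose. At 16 h VLDLR lay at 6.28 under VEM and 5.68 in DMSO (0.60). GRAMD1B, which carries plasma membrane cholesterol to the endoplasmic reticulum, lay at 6.94 under VEM and 7.59 in DMSO at 16 h, and at 7.21 under VEM with AT9283, 7.20 under VEM, 8.05 under AT9283 and 7.90 in DMSO at 6 h. All 3 arrays with VEM were below the 3 without it. The limma fit over 6 arrays, whose residual is not replicate error, gave -0.72 (SE 0.07, adjusted p 0.0233), where 4.77% of all genes passed. No other further gene tested had an adjusted p under 0.05 in that fit. In the fit over 4 arrays GRAMD1B had an adjusted p of 0.109. The further sterol synthesis genes LBR, GGPS1 and ACAT1 differed by -0.18, 0.16 and 0.53 at 16 h.

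Where a gene had several probe sets at the floor, their signs could be compared. At 16 h of VEM all probe sets had the same sign for 10 of 14 genes, and IDI1, ACACA, MVK and ACLY were the exceptions, the last 2 with differences under 0.1. At 6 h of VEM they had the same sign for 10 of 14 as well, for AT9283 alone for 5 of 12, and for VEM with AT9283 against VEM alone for 6 of 13.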

How the data were processed

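The deposited table holds probe set intensity values of 6 arrays on a linear scale, and the submitters' processing notes name RMA. No source used here gives its version or says whether all arrays were normalized in 1 run. Values were converted to log2. Of 54675 probe sets, 1118 (2.04%) in 6 blocks carry 6 h values that belong to another row. The DMSO arrays at 16 h and 6 h correlate at 0.455 there as deposited, 0.984 with the order restored, and 0.992 elsewhere. These rows and 62 control probe sets were left out. Gene names came from the platform annotation, with probe sets of 1 symbol used, and all 32 members matched current RefSeq symbols.

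Each comparison is the log2 difference of 2 arrays. The size rule is a difference of at least 1 with the higher array at log2 6 (intensity 64) or more. limma 3.58.1 in R 4.3.3 (trended prior, genes with an array at log2 6) fitted the vemurafenib effect. The fit was tested on simulated data with independent noise on each array and the same effect at both times. In the real arrays the residual is the change of the difference with time, so that test does not check the p values given here. Differences were computed with numpy 2.4.6 and pandas 2.3.3 in Python 3.11.15. The number of arrays limits the precision. All 35 members may be named, and of the further genes those over the size rule and those of the sterol synthesis and uptake lists; NR1H3 and the second ABCG1 probe set were named after their values were seen. The motifs and the printed promoters were chosen after the data were seen. The members and lists were chosen with earlier results of these data known.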

Additional observations from a re-analysis of the deposited data

Results flagged for a closer look

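TM7SF2 had opposite VEM differences at the 2 times, 1.03 at 16 h and -0.39 at 6 h. It also had opposite VEM differences at 6 h with and without AT9283, 0.41 with it and -0.39 without it. The differences between these values were not tested, and its level was below log2 6 on all 6 arrays. It has 1 probe set that names it alone.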

How the results depend on the processing

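The member counts of the 7 comparisons and of the limma fit, and the sterol and fatty acid synthesis medians for VEM at both times, were recomputed with arrays centred on their median, with quantile normalization, with the mean of all probe sets, with probe sets without _s, _x or _a suffix, with the misaligned rows kept, with only the 2 long blocks dropped and, an alternative added after seeing the data, with their order restored. Of 113 such values 104 stayed within 1.5 times the count or within 0.17, an SD per array estimated from the DMSO difference between the times, and 9 moved. Members over the size rule after 16 h of VEM numbered 1. They were 0 with the mean of probe sets, 2 with no floor, which adds TM7SF2, and 7 with a size of 0.5. The mean of probe sets brings ABCA1 below both the size and the floor, at 0.75 with a higher array of 5.13. With a size of 0.5 the counts, all 0 at a size of 1, were 3 for VEM at 6 h, 1 for AT9283, 2 for VEM with AT9283 against DMSO, 1 for it against AT9283, and 1 for DMSO at 16 h against 6 h. The fatty acid synthesis median at 16 h, -0.03, was 0.16 with probe sets without suffix, since fewer genes remain. At 6 h the sterol synthesis median, 0.03, was -0.06 with those probe sets, and the fatty acid synthesis median, -0.09, was 0.02 against the average of the DMSO arrays. No member passed the adjusted p in any of the 12 limma settings, among which the count of all genes past it was 113 and otherwise ran from 13 with no time block to 463 over 6 arrays, with 289 after centring, 171 after quantile normalization, 32 with the mean of probe sets, 71 without suffixed ones and 43 without a trend. Of 1498 values of single members 52 moved by more than that SD, 32 with the mean of probe sets and 20 without suffixed ones. In those 2 settings 192 and 134 values stayed. The settings of the misaligned rows could change no member difference, and so no count by size or median, as no probe set used lies in those rows. Centring could move no single member either, since its largest shift, -0.13 for VEM at 16 h, is smaller than that SD. Other medians and the counts of further genes were not recomputed. No paired analysis of replicates was possible because each condition has 1 array, so time is the one block that could be fitted. Genes below log2 6 are near background, so their differences are loose.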
